A study of Mus musculus with 18 samples.

Results

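The genes described here are the 36 nuclear genes that encode mouse aminoacyl-tRNA synthetases, 20 whose products work in the cytosol and 16 whose products work in mitochondria. They were chosen by symbol from the RefSeq entries of the count tables, with 1 transcript per gene, the one with the highest mean level. They are 36 of 13864 genes tested in mRNA sequencing and, with Wars2 too low to test, 35 of 9806 genes tested in RNAome sequencing. Gars and Kars, which encode the glycyl and lysyl enzymes of both compartments, are counted with the cytosolic genes unless stated otherwise.

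The cells were HPRT deficient embryonic stem (ES) cells of mouse strain C57BL/6 at passage 19-22, which had been kept on feeder cells and then on gelatin. HPRT is a purine salvage enzyme, and both groups lacked it. Of 6 RNA samples, 3 came from cells given 2.5 µM cisplatin, a platinum compound used against tumours that links bases of DNA to each other, and 3 came from control cells given the solvent DMSO. How long the cells were exposed is not stated in these sources. The cisplatin samples carry the codes 8.3.3, 8.4.3 and 8.5.3, and the control samples the codes 8.4.16, 8.5.16 and 8.6.16. Whether equal middle numbers link cisplatin and control samples is not stated, and the groups were compared as unpaired. Each RNA sample was read by mRNA sequencing, with a kit that selects poly(A) RNA, and by RNAome sequencing, in which rRNA-depleted and fragmented total RNA was put through a small RNA library protocol.

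Each synthetase joins its own amino acid to the matching tRNA, and so supplies translation with charged tRNAs. In the cytosol several of these enzymes, among them the fused glutamyl-prolyl enzyme encoded by Eprs, sit together in a multi-synthetase complex. Most mitochondrial enzymes come from separate genes whose symbols end in 2, and they serve the small set of proteins made inside the organelle. Many cytosolic synthetase genes are known targets of ATF4, a transcription factor made when amino acids or other resources run short.

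The expression tables held 20365963 to 31604098 counts per library in mRNA sequencing and 43404675 to 94373096 in RNAome sequencing. The share on tested genes was uneven in RNAome sequencing, with 14620331 to 19234154 counts in cisplatin libraries against 4959687 to 13562663 in control libraries, the lowest being control 8.4.16. Counts of cytosolic synthetase transcripts ran from 1115 to 9429 per library in mRNA sequencing and from 28 to 900 in RNAome sequencing. For mitochondrial ones other than Lars2 the ranges were 71 to 1622 and 2 to 218. The 12 ES cell markers examined were all detected in both assays, and their summed level in mRNA sequencing was 5405 to 5599 CPM (counts scaled to a common TMM-adjusted library total) in cisplatin libraries against 6401 to 6671 CPM in control libraries, and 8 of the 12 fell, where 19.4% of all genes did. In RNAome sequencing the sums were 369.5 to 383.9 and 431.5 to 471.6 CPM. For 8 feeder fibroblast markers the sums were 65.3 to 128.1 and 71.3 to 106.2 CPM in mRNA sequencing. Of these 8 markers 1, Mmp2, rose (0.57 ± 0.13, adjusted p = 0.00296), where 18.7% of all genes did. In RNAome sequencing 6 of these markers summed to 4.38 to 5.81 CPM in cisplatin libraries, all above the 2.46 to 4.18 CPM of control libraries. Of the 6 only Mmp2 was tested there, on 4 to 66 counts per library. Mmp2 averaged 2.796 CPM with cisplatin and 1.286 CPM in controls, and did not pass (1.04 ± 0.29, adjusted p = 0.0784). Whether the other markers in the RNAome sum differ was not tested. The other 2 of the list, Dcn and Lum, were not analysed here. The part of cell state or feeder cells in the results below was not tested.

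The first comparison asked which synthetase mRNAs differed after cisplatin in mRNA sequencing. Synthetase transcripts called lower with cisplatin were mainly those of cytosolic genes. By edgeR's quasi-likelihood test with an adjusted p under 0.05 over all genes, 15 of the 20 cytosolic genes fell, and Cars, Farsa, Hars, Kars and Qars did not pass. No cytosolic gene rose in edgeR or DESeq2, nor was any positive at an unadjusted p under 0.05. Of the 16 mitochondrial genes 4 fell (Fars2, Lars2, Rars2 and Yars2), Pars2 rose and 11 did not pass, while DESeq2 called 1 mitochondrial fall, Fars2, with Lars2, Rars2 and Yars2 above the threshold. Among all genes tested 19.4% fell and 18.7% rose, 38.1% in all, against 20 of the 36 members. The falls of cytosolic genes were small, with fitted changes of -27.3% to -9.7%. The difference between the 2 compartments was not tested, because the genes were chosen with results known. Mitochondrial genes other than Lars2 had 71 to 1622 counts per library, against 1115 to 9429 for cytosolic genes. A change of equal size was therefore less likely to pass among them, and the numbers of calls are not directly comparable.

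The median log2 fold change (cisplatin minus control) was -0.22 for cytosolic genes and -0.05 for mitochondrial genes, against 0.02 for all genes tested. All cytosolic genes but Hars had a negative value, as did 6581 of all 13864 genes tested. In 15 cytosolic and 4 mitochondrial genes every cisplatin library lay below every control library, which held for 24% of all genes. The reverse held for Pars2 and Mars2 (methionyl, mitochondrial), against 25.3% of all genes. In bulk RNA, fewer cells of a type and less RNA per cell cannot be told apart. The labels do not state that the 3 samples of a group were separate cultures, and p-values then cover nothing beyond the spread among them, which may be technical.

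**Figure D1:**
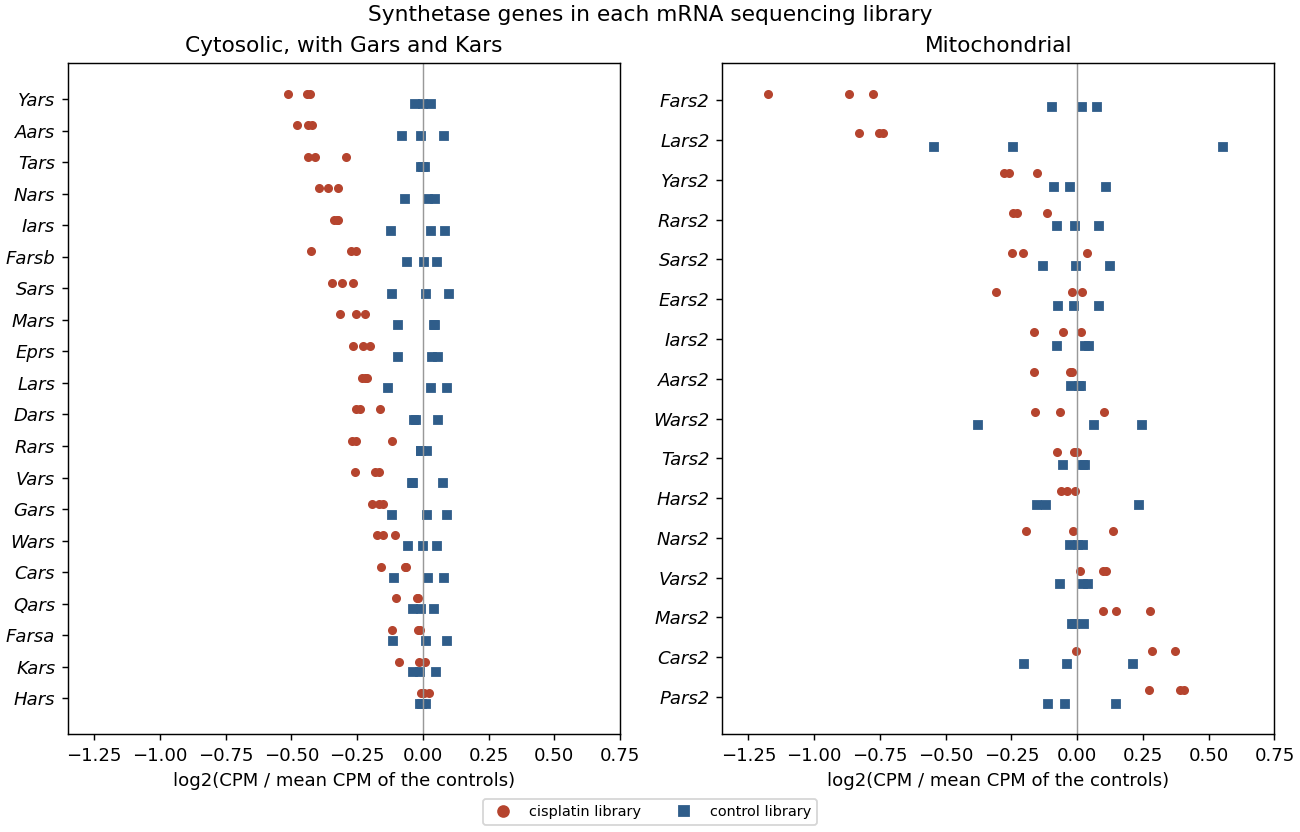
Each row is a synthetase gene and each point a library of mRNA sequencing, on the log2 scale of CPM relative to the mean of the 3 controls, with cisplatin libraries as red circles above control libraries as blue squares. In 15 of 20 cytosolic rows and 4 of 16 mitochondrial rows all red points lie left of all blue ones, and in the Lars2 row the control libraries spread more widely than in any other row.

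The tyrosyl enzyme gene Yars (NM_134151, chr4:128867004-128896851 on mm9) had the largest cytosolic fall. Its level was 157.9, 159.3 and 150.1 CPM in cisplatin libraries, against 214.2, 218.8 and 209.8 CPM in control libraries. All 3 cisplatin values lay well below all control values, and the log2 change was -0.46 ± 0.05 (SE, n = 3 each, adjusted p = 4.5e-06). Aars (NM_146217, chr8:113557044-113581564), the alanyl enzyme gene, had 459.4, 464.3 and 446.0 CPM with cisplatin and 618.9, 657.4 and 587.3 CPM in controls. The log2 change of Aars was -0.44 ± 0.05 (adjusted p = 5.1e-06), with no overlap between groups.

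Tars, for threonine (NM_033074, chr15:11313418-11329413), was at 213.0, 196.2 and 192.6 CPM in cisplatin libraries, against 259.4, 260.5 and 262.4 CPM in control libraries, a change of -0.38 ± 0.05 (adjusted p = 3.59e-05). The controls of Tars lay within a few CPM of one another. Nars, for asparagine (NM_001142950), had 299.2, 291.6 and 284.5 CPM with cisplatin and 378.9, 386.1 and 357.2 CPM in controls, a change of -0.36 ± 0.05 (adjusted p = 3.33e-05). Iars, for isoleucine (NM_172015, chr13:49777469-49829636), had 303.1, 304.0 and 300.5 CPM with cisplatin, against 387.9, 403.4 and 349.1 CPM in controls. Its change was -0.33 ± 0.05 (adjusted p = 2.04e-04), and the groups were apart in both genes. Counts on Iars are uncertain as those of a single gene, since 59.0% of its coding bases match another place on the assembly at 95% identity or more.

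The remaining cytosolic falls, from Farsb (-0.31, the beta subunit of the phenylalanyl enzyme) through Sars, Mars, Eprs, Lars, Dars, Rars, Vars and Gars to Wars (-0.15), followed without a break. The alpha subunit gene Farsa, whose product forms 1 enzyme with that of Farsb, was at -0.05 ± 0.06 and did not pass (adjusted p = 0.594), with 131.3, 132.3 and 122.9 CPM in cisplatin libraries and 134.4, 123.2 and 142.0 CPM in controls. Whether the changes of the 2 subunit genes differ was not tested.

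Of the 8 genes for enzymes of the multi-synthetase complex 6 fell and 2 (Kars and Qars) did not pass, with a median of -0.22. Of the 12 other cytosolic genes 9 fell and 3 did not pass, with a median of -0.25. By catalytic class, 10 of 18 class I genes fell, while 8 of 17 class II genes fell and 1 rose. Eprs, which joins both classes, fell as well. Each of these shares can be read against the 19.4% of all genes that fell.

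Of the genes that serve both compartments, Gars fell and Kars did not pass, and whether their changes differ was not tested. Gars (NM_180678, chr6:54987995-55029498) had 397.3, 404.7 and 408.6 CPM with cisplatin, against 459.5, 484.3 and 418.9 CPM in controls. The groups lay close together without overlap, and the change of -0.17 ± 0.05 passed (adjusted p = 0.0176), but not without control 8.5.16 (adjusted p = 0.0799). Kars (NM_001130868, chr8:114517340-114535223) had 388.7, 409.2 and 416.3 CPM with cisplatin and 402.4, 410.2 and 428.0 CPM in controls, which overlapped (-0.03 ± 0.05, adjusted p = 0.629). Wars, for tryptophan (NM_001164314, chr12:110098240-110132384), was just inside the threshold. It had 114.4, 116.4 and 120.0 CPM with cisplatin and 124.1, 134.2 and 129.4 CPM in controls (-0.15 ± 0.05, adjusted p = 0.0416), and it passed in only 2 of the 6 fits that left out a library.

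The promoter windows of the synthetase genes were searched because many of these genes moved together and because ATF4 acts through a known element. The letters searched were TGATGNAA, the core of the element that ATF4 binds with C/EBP partners, on both strands of the 300 bases that RefSeq windows on GRCm38.p6 give for each gene (250 before to 50 after the annotated start). Windows were at hand for 27 of the 36 genes, and for all but Rars, Vars, Nars, Hars, Wars, Cars, Lars, Hars2 and Pars2. The letters were found in 5 of 13 cytosolic genes (38.46%) and in 0 of 14 mitochondrial genes, against 1219 of 27025 genes overall (4.51%). The 5 genes were Aars, Gars, Iars, Tars and Yars, and all 5 fell in mRNA sequencing. Of the 8 cytosolic genes whose window lacks the letters 5 fell too (Dars, Eprs, Farsb, Mars and Sars), and 19.4% of all genes fell. A match is a description of letters and not of binding, and a window without one says nothing about the factor.

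The 5 windows are shown 5′ to 3′ on the strand of the gene, with the matched letters in capitals, so that the place of each match can be read off. Aars is at chr8:111033592-111033891 on the plus strand, Gars at chr6:55037751-55038050 (plus), Iars at chr13:49681880-49682179 (plus), Tars at chr15:11399609-11399908 (minus) and Yars at chr4:129189653-129189952 (plus), all on GRCm38.p6.
Aars: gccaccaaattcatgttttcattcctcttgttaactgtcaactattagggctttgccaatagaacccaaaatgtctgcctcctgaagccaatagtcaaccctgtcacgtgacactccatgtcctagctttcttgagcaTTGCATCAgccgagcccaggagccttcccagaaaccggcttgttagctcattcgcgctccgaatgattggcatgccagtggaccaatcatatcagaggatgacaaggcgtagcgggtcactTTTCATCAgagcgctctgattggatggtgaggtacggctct
Gars: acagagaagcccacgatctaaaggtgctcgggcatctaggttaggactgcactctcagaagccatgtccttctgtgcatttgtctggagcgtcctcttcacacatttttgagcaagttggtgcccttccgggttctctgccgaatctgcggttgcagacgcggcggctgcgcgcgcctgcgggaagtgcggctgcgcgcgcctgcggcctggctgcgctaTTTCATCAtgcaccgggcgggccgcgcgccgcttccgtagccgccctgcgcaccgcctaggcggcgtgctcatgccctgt
Iars: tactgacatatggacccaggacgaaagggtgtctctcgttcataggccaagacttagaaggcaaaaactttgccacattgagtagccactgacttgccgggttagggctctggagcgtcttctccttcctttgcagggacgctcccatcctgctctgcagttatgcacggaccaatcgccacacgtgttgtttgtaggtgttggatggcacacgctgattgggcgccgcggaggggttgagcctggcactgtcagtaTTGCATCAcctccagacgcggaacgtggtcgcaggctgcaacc
Tars: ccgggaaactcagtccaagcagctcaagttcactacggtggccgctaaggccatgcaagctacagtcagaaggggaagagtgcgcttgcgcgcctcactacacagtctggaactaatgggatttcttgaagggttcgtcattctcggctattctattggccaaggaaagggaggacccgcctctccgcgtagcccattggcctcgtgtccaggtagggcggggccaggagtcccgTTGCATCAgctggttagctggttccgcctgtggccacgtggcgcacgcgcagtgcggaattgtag
Yars: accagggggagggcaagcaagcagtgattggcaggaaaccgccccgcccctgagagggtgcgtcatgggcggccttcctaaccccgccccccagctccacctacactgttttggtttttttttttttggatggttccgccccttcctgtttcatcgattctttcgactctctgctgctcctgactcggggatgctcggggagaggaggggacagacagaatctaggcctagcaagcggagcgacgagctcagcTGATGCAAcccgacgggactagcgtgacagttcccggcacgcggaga
Aars holds 2 matches, which begin 112 bases before and 9 bases after the annotated start. The match of Gars begins 30 bases before the start and that of Tars 15 bases before it. Those of Iars and Yars begin 7 and 3 bases after it. In Aars, Gars, Iars and Tars the letters read in the reverse direction (TTGCATCA or TTTCATCA), and in Yars in the forward direction (TGATGCAA).

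Among mitochondrial genes the phenylalanyl gene Fars2 (NM_024274, chr13:36209280-36629461 on mm9) fell the most. It had 8.76, 9.31 and 7.07 CPM in cisplatin libraries, against 14.9, 16.8 and 16.2 CPM in control libraries. The highest cisplatin value was well under the lowest control value, and the log2 change was -0.92 ± 0.13 (adjusted p = 5.09e-05). Fars2 spans 420.2 kb of genome, the longest of the 36 genes, while the next longest are Nars2 with 113.3 kb and Wars2 with 98.1 kb, neither of which passed. Of 228 genes of at least 300000 bases tested in mRNA sequencing 142 fell (62.3%) and 8 rose, with a median log2 change of -0.63. The part of gene length in the Fars2 value was not tested.

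Pars2, the mitochondrial prolyl enzyme gene (NM_001083887, chr4:106323674-106327887), was the member that rose. It had 21.2, 23.1 and 23.3 CPM with cisplatin, against 16.3, 19.4 and 17 CPM in controls, a change of 0.35 ± 0.10 (adjusted p = 0.0116). The groups did not overlap, but the call was lost without cisplatin 8.4.3 or without control 8.4.16, where the adjusted p reached 0.0587. Its cytosolic counterpart Eprs (NM_029735, chr1:187186974-187252234) had 534.4, 549.4 and 560.3 CPM with cisplatin and 659.4, 668.6 and 601.8 CPM in controls, a change of -0.23 ± 0.05 (adjusted p = 0.00136). Proline was the only amino acid whose cytosolic and mitochondrial genes were called in opposite directions.

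Rars2 (arginyl, -0.20 ± 0.07, adjusted p = 0.0356) and Yars2 (tyrosyl, -0.23 ± 0.08, adjusted p = 0.0305) lay near the threshold and passed in 3 and 2 of the 6 fits that left out a library. The 11 mitochondrial genes that did not pass had log2 values of -0.14 (Sars2) to 0.23 (Cars2). Hars2 and Hars begin in opposite directions and overlap at their starts, and the sources used here do not say whether the counting used strand.

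Lars2, the mitochondrial leucyl enzyme gene (NM_153168, chr9:123276058-123371782), stood apart from all other members. In mRNA sequencing it had 338.4, 342.8 and 321.8 CPM with cisplatin, against 839.5, 391.8 and 482.2 CPM in controls. All cisplatin values were lower than all control values, but control 8.4.16 was far above the other controls. The log2 change was -0.77 ± 0.18 (adjusted p = 0.00374, and 0.0698 in DESeq2), and -0.39 without control 8.4.16 (adjusted p = 0.00118).

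In RNAome sequencing Lars2 had 7100, 7232 and 15157 CPM in cisplatin libraries and 34550, 9397 and 7746 CPM in control libraries, while the most abundant of the other members reached 44.0 CPM. The groups overlapped, control 8.4.16 was again highest, and the log2 change of -0.81 ± 0.54 (adjusted p = 0.559) became 0.20 without that library. Counts on Lars2 introns in the same libraries were 33, 59 and 28 with cisplatin and 11, 27 and 19 in controls, which is within the range of the intron counts of the other members. The deposited expression count of Lars2 was 2.15 to 2.33 times its abundance count, and for all other members the ratio was at most 1.10. Of the 986 bases of its annotated 3′ untranslated region 398 match 16 other places on the assembly at 90% identity or more over at least 50 bases. The part of these matches in the Lars2 values was not tested.

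**Figure D2:**
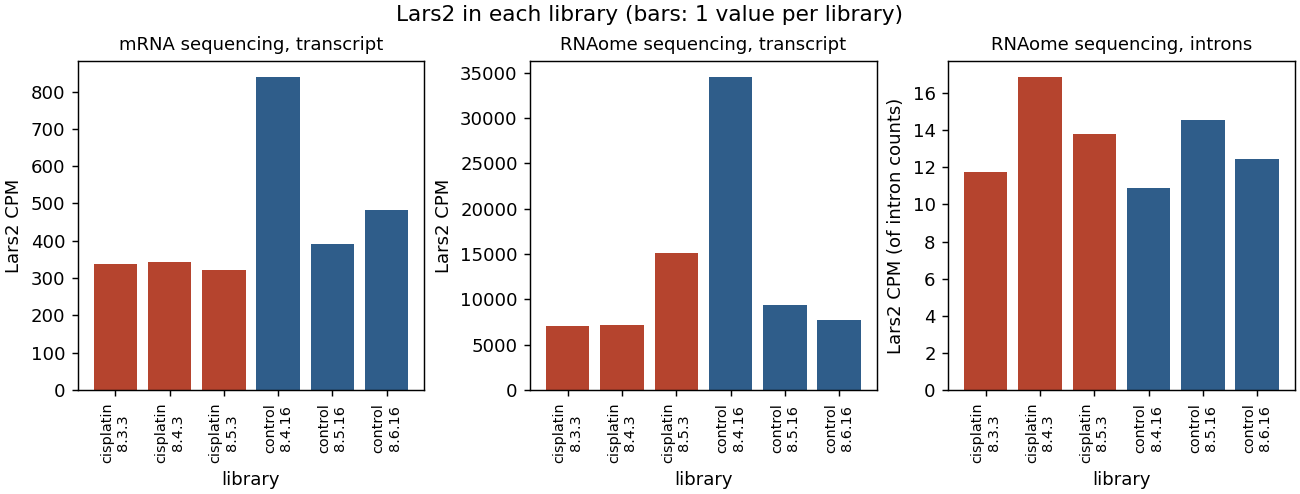
Bars give Lars2 CPM in each library, with 1 value per bar, cisplatin libraries in red left of control libraries in blue, for the transcript in mRNA sequencing, the transcript in RNAome sequencing and the introns in RNAome sequencing. Control 8.4.16 is highest for the transcript in both assays, at 839.5 and 34550 CPM, and lowest for the introns.

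Levels can be compared between genes only per length. Coding length was used, which leaves out untranslated regions that counts per transcript may include, so the order of genes is approximate. Per kb of coding sequence, the control mean in mRNA sequencing was 62.9 (Cars) to 222.7 CPM (Nars) for the 18 purely cytosolic genes, 220.6 CPM for Kars and 207.4 CPM for Gars. The mitochondrial genes other than Lars2 ran from 7.28 (Wars2) to 42.2 CPM (Tars2), so that none reached the lowest cytosolic gene. The same gap held with cisplatin, where Tars2 was at 41.4 and Cars at 58.9 CPM per kb. At the top of the order in controls Nars, Kars, Aars, Lars2 and Gars each differed from the next by less than their SD (222.7 ± 8.95, 220.6 ± 6.99, 213.7 ± 12.1, 210.8 ± 87.4 and 207.4 ± 15.1 CPM per kb, SD, n = 3). With cisplatin the order at the top was Kars (215.8 ± 7.65), Gars (184.3 ± 2.63), Nars (173.7 ± 4.35) and Aars (157.1 ± 3.25). In RNAome sequencing the gap did not hold, and the ranges of the compartments overlapped without Lars2 too. Control means there were 5.50 CPM per kb for Rars2 and 3.94 for Nars2, against 2.03 for Vars, the lowest cytosolic gene.

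**Figure D3:**
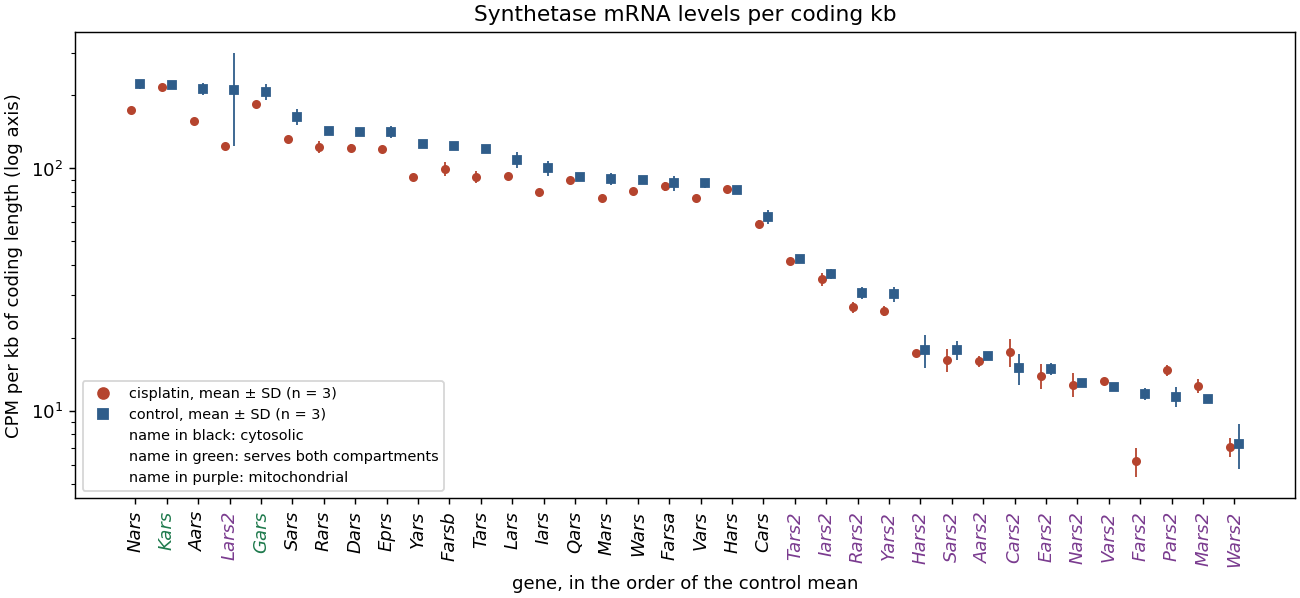
Points give the mean ± SD of 3 mRNA sequencing libraries in CPM per kb of coding length on a log axis. Cisplatin is in red left of control in blue, for genes in the order of their control mean. Cytosolic genes (black) and the genes of both compartments (green) lie above the mitochondrial genes (purple), apart from Lars2 at 210.8 CPM per kb with a wide SD of 87.4.

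For 13 amino acids each compartment has a gene of its own. The ratio of the cytosolic to the mitochondrial CPM per kb of coding length can be taken within a library. It had a median log2 difference of -0.26 (cisplatin minus control), with 11 negative values and 2 positive ones, for leucine and histidine. For alanine the ratio was 9.53, 9.68 and 10.2 with cisplatin and 12.5, 13.7 and 11.96 in controls. For methionine it was 5.73, 6.13 and 6.08 with cisplatin and 7.68, 8.37 and 8.19 in controls. In both the groups were apart, as they were for isoleucine, asparagine, threonine, valine and tyrosine. These ratios use the same CPM values as above, divided by coding length. They were compared with no other gene pairs, and carry no test.

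Summed over genes, cytosolic synthetases reached 5140 ± 39.8 CPM with cisplatin, against 6074 ± 179 CPM in controls (SD, n = 3 each). The 15 mitochondrial genes without Lars2 summed to 550.5 ± 9.73 and 571.6 ± 2.49 CPM. Without Lars2 the cytosolic share of the sum was 90.3% ± 0.09 with cisplatin and 91.4% ± 0.24 in controls, and with Lars2 it was 85.3% ± 0.20 and 84.2% ± 2.74, so the direction of the difference turns on that gene. With Lars2 the control spread was larger than the difference.

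The second comparison asked the same of RNAome sequencing, where total RNA was read. No synthetase gene passed in edgeR or in DESeq2, against 0.989% of all genes that rose and 1.1% that fell in edgeR (2.09% in all). The smallest adjusted p was 0.118, for Lars. At an unadjusted p under 0.05 edgeR had 1 positive member (Pars2) and 4 negative ones (Lars, Rars, Vars and Fars2). Of all genes tested 14.2% were under that value in edgeR, in either direction. DESeq2 had 1 positive and 3 negative members. The median log2 value was -0.15 for cytosolic genes, 15 of 20 of them negative, and -0.01 for the 15 mitochondrial genes, against 0.00 for all genes tested. Of all 9806 genes tested 4953 were negative.

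The precision was lower than in mRNA sequencing, with a median SE of 0.19 over the members, against 0.06. In simulated data 3.7% of changes of 0.4 on the log2 scale were recovered in the RNAome design and 56.2% in the mRNA design, so most changes of that size were missed in the simulated RNAome design. The simulation does not separate depth from the spread between libraries. Its changed genes were drawn at random, with 109 of that size in the RNAome design and 96 in the mRNA design. Far more genes were called in the real mRNA data, which alters the adjusted threshold. The recovered shares are therefore not those of the synthetase genes. Of the 19 genes that fell in mRNA sequencing 17 had a negative RNAome value, with a median of -0.17, and Gars and Sars had positive ones. The same share among all genes that fell in mRNA sequencing was not computed, so this is not shown to be particular to the members. Both assays read the same RNA samples and are not independent of each other in this.

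Fars2 in RNAome sequencing had 0.817, 1.07 and 0.919 CPM with cisplatin, against 0.950, 1.98 and 2.35 CPM in controls, a value of -0.98 ± 0.34 (adjusted p = 0.171). The lowest control lay within the cisplatin range. Pars2 had 2.16, 2.40 and 2.57 CPM with cisplatin and 0.380, 1.88 and 1.28 CPM in controls, a value of 0.83 ± 0.34 (adjusted p = 0.262) with no overlap between groups. Aars had 28.3, 31.4 and 25.0 CPM with cisplatin and 36.1, 30.0 and 36.7 CPM in controls, a value of -0.27 ± 0.16 (adjusted p = 0.478) with overlap.

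Cisplatin libraries lay above all controls for Gars, Qars and Pars2, where 9.98% of all genes did, and below all controls for Iars, Lars and Nars, where 9.28% did. Lars had 11.0, 9.41 and 11.39 CPM with cisplatin and 23.7, 16 and 11.45 CPM in controls (-0.66 ± 0.21). Vars had 3.91, 2.93 and 4.96 CPM with cisplatin and 12.9, 4.14 and 6.31 CPM in controls (-0.92 ± 0.31, adjusted p = 0.145). In both genes control 8.4.16, the library with the fewest counts on tested genes, was highest. Without it Vars was at -0.44 and Lars at -0.39. Lars passed without control 8.6.16 (adjusted p = 0.0355) and Vars without control 8.5.16 (adjusted p = 0.0244).

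**Figure D4:**
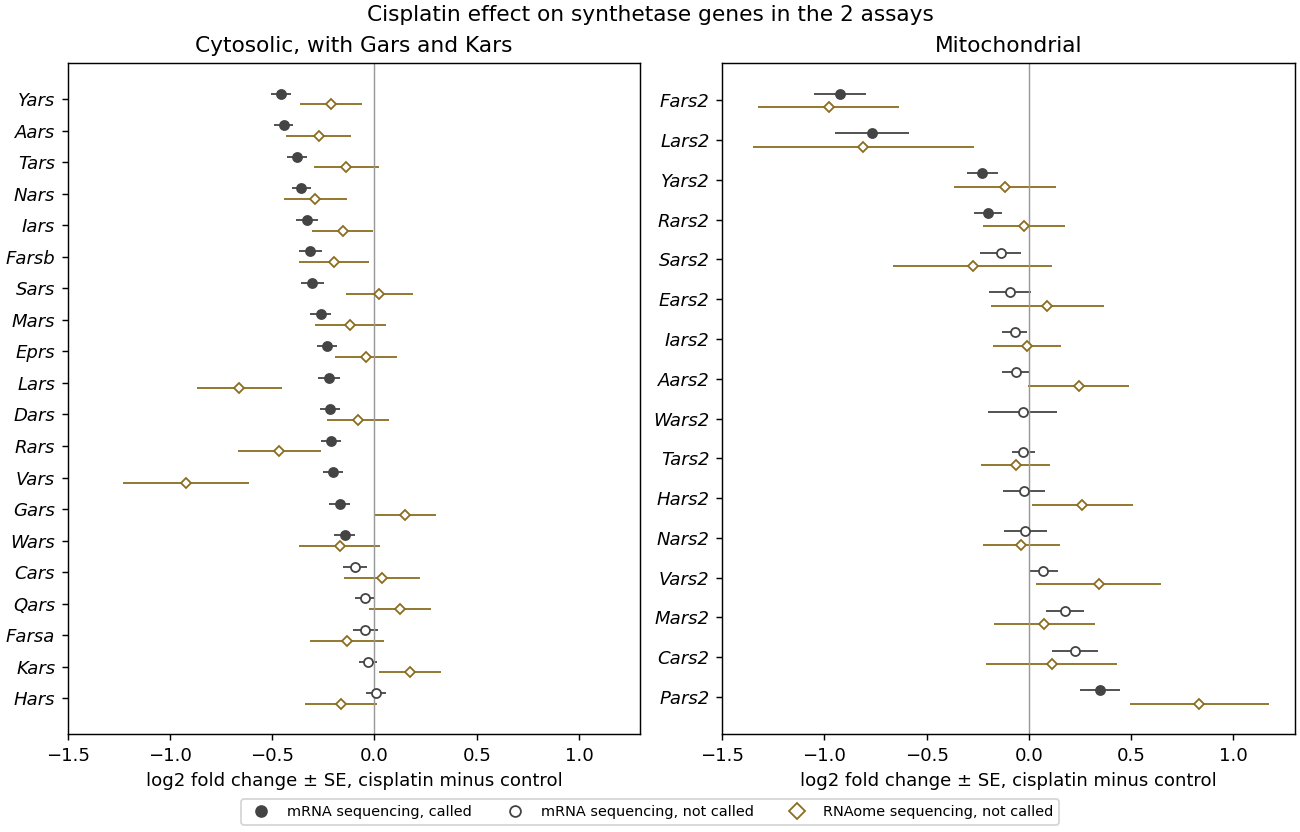
Log2 fold change ± SE (cisplatin minus control, 3 libraries per group) of each gene in mRNA sequencing (circles, filled where called) and below it in RNAome sequencing (diamonds), for cytosolic genes on the left and mitochondrial genes on the right. In mRNA sequencing 20 circles are filled, in RNAome sequencing no gene was called, and the error bars of the diamonds are longer.

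Whether the effect of cisplatin differed between the assays was tested as an interaction over the 12 libraries. No member passed in edgeR, the background being 0% of 12868 genes, and the smallest adjusted p was 0.831. At an unadjusted p under 0.05 there were 2 members, against 5.9% of all genes. They were Gars with a difference of 0.33 ± 0.15 (RNAome minus mRNA effect) and Vars with -0.69 ± 0.29. With a term for the RNA sample in the fit, 0 members were positive and 2 negative at that value. The counts were the same with DESeq2 size factors, so Gars was not under it in either. Gars had 40.2, 39.9 and 39.2 CPM in RNAome cisplatin libraries and 34.4, 36.05 and 36.9 CPM in RNAome controls, the opposite order of groups from that in mRNA sequencing. DESeq2 was not run on the interaction.

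RNAome sequencing also counted reads in introns, which come largely from unspliced RNA. Regions that equal introns of 1 member alone were summed per gene, and 22 members were tested among 4264 genes. No member passed in edgeR, where 0.704% of all genes rose and 0.375% fell, and no member passed in DESeq2. At an unadjusted p under 0.05 edgeR had 2 negative members, Lars (-0.57 ± 0.26) and Mars (-0.91 ± 0.37), and DESeq2 had 0. Of all genes tested 13.0% were under that value in edgeR, in either direction. The median was -0.28 over the 15 cytosolic genes tested, 11 of them negative, and 0.15 over the 7 mitochondrial genes, 5 of them positive. Counts were 2 to 199 per gene and library. For Fars2 the intron counts were 66, 85 and 46 with cisplatin and 24, 53 and 39 in controls, a value of -0.16 ± 0.20 after scaling (adjusted p = 0.803).

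Among 15 other genes of tRNA charging, partners and relatives of the synthetases, 2 fell and 1 rose in mRNA sequencing, with a median of 0.03, against 19.4% and 18.7% of all genes. Those that fell were Eef1e1 (-0.32 ± 0.07), whose product is a scaffold of the multi-synthetase complex, and Trnt1 (-0.26 ± 0.07), which adds the CCA end to tRNAs. Tarsl2, a cytosolic threonyl enzyme gene, rose by 0.33 ± 0.11 in edgeR (adjusted p = 0.0312) but was not called in DESeq2, which gave 2 falls and no rise. The other scaffold genes did not pass, with Aimp1 at -0.03 and Aimp2 at 0.05. In RNAome sequencing 0 of the 15 passed in edgeR or DESeq2. At an unadjusted p under 0.05 edgeR had 2 positive genes and DESeq2 had 1, where 14.2% of all genes were under that value in edgeR.

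In the list of the ATF4 pathway, which holds its sensors, transcription factors and amino acid targets, 18 of 39 genes fell and 4 rose in mRNA sequencing, with a median of -0.19, against 19.4% and 18.7% of all genes. Atf4 itself averaged 86.0 ± 7.95 CPM with cisplatin, against 164.1 ± 9.53 CPM in controls (SD, n = 3 each), and fell by 0.93 ± 0.07 on the log2 scale (adjusted p = 1.98e-07). Chac1, a glutathione-degrading enzyme gene, fell by 1.75 ± 0.15, and Aldh18a1, which acts in proline synthesis, fell by 0.61 ± 0.06. Ddit4, an inhibitor of mTORC1 signalling, went the other way and rose by 1.84 ± 0.18. In RNAome sequencing 1 of 33 fell (Atf4, -0.80 ± 0.15, adjusted p = 0.00586) and 1 rose (Ddit4, 2.21 ± 0.25). Genes of this list were chosen with earlier results of these data known, and no relation to the synthetase values was tested.

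Downstream of charging, 3 of 9 cytosolic elongation and termination factor genes fell in mRNA sequencing, with a median of -0.04, against 19.4% of all genes. They were the release factor genes Etf1 (-0.41 ± 0.05) and Gspt1 (-0.32 ± 0.04), and Eef2k (-0.61 ± 0.13), which encodes the kinase of elongation factor eEF2. Of 10 mitochondrial translation factor genes Gfm1, an elongation factor, fell (-0.26 ± 0.05) and Mtif3, an initiation factor, rose (0.33 ± 0.08), with a median of -0.12 and a share of calls under the 38.1% of all genes. In RNAome sequencing 0 of 9 genes of either list passed in edgeR or DESeq2. At an unadjusted p under 0.05 there was 1 negative gene, Eef2k, in edgeR and 0 in DESeq2. Of all genes tested 14.2% were under that value in edgeR.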

How the data were processed

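The values used were read counts per RefSeq transcript or intron region, deposited by the authors without normalization. Per the submitters' processing notes, Bowtie, TopHat, edgeR and build mm9 were named, without versions or roles. The kits were as given per the labels' protocols. Of the 2 deposited tables per assay, the one named expression was used, and the one named abundance served as an alternative. No source used here says why they differ.

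Symbols came from a RefSeq table of GRCm38.p6, which matched 18457 of 18943 entries (mRNA) and 17337 of 17787 (RNAome). A transcript in both tables was preferred, then the one with the highest mean CPM. For all 36 genes this was also the highest in the table. Gene coordinates and introns are those of GENCODE vM1 on NCBIM37, the mm9 assembly, where 46857 of 60881 RNAome regions equal an intron.

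Tests used edgeR 4.0.16 under R 4.3.3 (quasi-likelihood test, TMM, filterByExpr, two-sided, Benjamini-Hochberg over all genes tested, threshold 0.05), with DESeq2 1.42.0 as an alternative. SE is the absolute log2 fold change over the square root of F. The fit was tested on simulated data. BLAST 2.17.0+ found copies. The members, lists, tests and promoter letters were chosen with earlier results of these data known. Values per library are given for the 8 largest changes among called genes, for Aars, Gars, Kars and Wars, and for amino acids with calls in opposite directions. Farsa, Lars and Vars, and the RNAome values of further genes, were chosen after their values were seen. The sample codes pair the 2 assays, since equal codes mark the same RNA. Deviations from the group means correlated by 0.042 to 0.164 between assays over 12868 genes. Small RNA libraries were not used, and 1 list gene is not reported here and was left out of its list's counts.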

Additional observations from a re-analysis of the deposited data

How the results depend on the processing

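In mRNA sequencing the counts of 1 higher and 19 lower members were the same with DESeq2 size factors, without a filter on low counts, in the abundance table and with the transcript highest in that table. DESeq2 gave 1 and 15, without Lars2, Rars2, Wars and Yars2 (adjusted p 0.0562 to 0.0698), which took the mitochondrial falls to 1. Leaving out each library in turn gave 0 to 2 higher and 16 to 19 lower members in mRNA sequencing, 13 to 16 of them cytosolic, and 0 to 1 lower in RNAome sequencing. The mRNA difference in the cytosolic share (1.10 percentage points, cisplatin minus control) became -0.05 in the abundance table and -1.07 without Lars2, and the RNAome difference (0.67) became -1.15 without Lars2. The settings without Lars2 were chosen after seeing the data. With the RNA sample as a replicate block, 0 members differed between assays, as without it. Among values of single members, 4 passed and 18 lost the threshold under an alternative. A further 32 uncalled values changed sign, and 727 values kept direction and call. In RNAome sequencing single members had as few as 2 counts per library, which limits their precision.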
